A study of Homo sapiens
Mus musculus with 16 samples.

Results

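The tumours compared here are ScaBER xenografts given alpelisib together with nintedanib and ScaBER xenografts given alpelisib without it, measured through the transcripts that mapped to the human genome. They make up 8 of the 16 libraries of the study, 4 in each group, and were taken by their treatment labels. ScaBER is an established human bladder carcinoma line with squamous features, and the tumours were grown as xenografts in Hsd:Athymic Nude-Foxn1nu mice, which lack a thymus and so most T cells but keep stroma, vessels and innate immune cells. Every mouse was treated for 14 days. The combination group had alpelisib at 25 mg/kg and nintedanib at 40 mg/kg, the alpelisib group had alpelisib at 25 mg/kg, and the other 8 libraries came from tumours given nintedanib at 40 mg/kg or vehicle, 4 of each. Both groups compared therefore carry alpelisib, and the difference between them is what nintedanib added on top of it. The sources used here give neither the age and sex of the mice, nor the dosing schedule, nor whether a mouse gave more than 1 library, so a p-value measures the spread between these libraries. All tumours derive from 1 cell line.

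Alpelisib inhibits the alpha isoform of PI3K, the lipid kinase that carries growth factor signals to AKT and mTOR. Nintedanib inhibits the receptor kinases for VEGF, FGF and PDGF. The VEGF and PDGF receptors sit mainly on endothelial cells, pericytes and fibroblasts, which in a xenograft belong to the mouse, while FGF receptors can sit on the carcinoma cells themselves. A squamous carcinoma keeps part of the programme of stratified epithelium, in which basal cells divide and suprabasal cells switch to keratins 1 and 10, small proline-rich proteins and secreted kallikrein proteases as they cornify.

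Values are normalized read counts of 3′ libraries, and differences are on the log2(value + 1) scale, positive where the combination was higher. Of 23368 human genes listed, 17663 reached a value of 1 in 4 or more of the 16 libraries and were tested with limma, with Benjamini-Hochberg adjustment over all of them and a threshold of 0.05. Human reads numbered 12642711 to 18382593 per library with alpelisib and 9277466 (combination 3) to 18568119 (combination 2) with both drugs. Mouse reads made up 20.7% to 28.9% of all reads with alpelisib and 20.5% to 31.5% with both drugs, so the shares overlapped. Combination 4 stood apart in the human table: genes at or above median expression lay a median of 0.357 (log2, absolute) from their own median over the 16 libraries, against 0.102 to 0.320 in the others, and it had the most genes with a read (17867). Combination 1 carried host skeletal muscle transcripts at 2.254% of the mouse table, against at most 0.3176% in the alpelisib group. The 11 basal and squamous bladder markers were all detected, with a summed level of 1.503% to 2.482% of human reads with alpelisib and 1.640% to 2.378% with both drugs, and of 10 luminal markers UPK3A was listed at 0 in both groups. KRT5 stood at 80327 ± 21672 (SD, n = 4) and 78214 ± 15479 (SD, n = 4) and TP63 at 976 ± 235 (SD, n = 4) and 955 ± 178 (SD, n = 4), which is the pattern of a basal or squamous line in both groups.

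A single gene changed by the test. KLK10, a secreted serine protease of stratified epithelium, fell when nintedanib was added to alpelisib. Its normalized value was 1647, 1789.5, 1462 and 1517 in alpelisib libraries 1 to 4 and 727, 882, 779.6 and 546 in combination libraries 1 to 4. The groups did not overlap, and the lowest alpelisib library was well above the highest combination library. The means were 1604 ± 146 (SD, n = 4) and 734 ± 141 (SD, n = 4), a log2 difference of -1.14 (SE 0.18, limma adjusted p = 0.0486), or 2.21-fold on that scale. Without alpelisib, KLK10 was at 869.8 to 1563 with nintedanib and 879.5 to 1238.5 with vehicle, a log2 difference of 0.19 (SE 0.18). The difference between these nintedanib effects was -1.34 (SE 0.26), with a limma adjusted p of 0.205. KLK10 was 1 of 17663 genes called, or 0.00566%. The adjusted p lies close to the threshold: 22 of 28 other settings gave 0.0537 to 0.369, while the log2 difference stayed between -1.24 and -1.01 with any 1 library left out.

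KLK10 lies in a run of kallikrein genes that are neighbours on the genome, a cluster of secreted trypsin-like and chymotrypsin-like proteases. Several of them cut the junctions between cornified cells, and others are shed by glandular epithelia. Of 12 kallikreins listed, 11 were tested and KLK14 was below the filter. Their median log2 difference was -0.77, against 0.01 for all genes tested, and 9 of 11 were below 0. With 1 library left out at a time the median ran from -1.12 to -0.52. At an unadjusted p under 0.05, 7 were lower and 1 (KLK1) was higher, and the background for a lower gene at that level was 3.74% of all genes tested. In 6 of them every combination library was below every alpelisib library, a pattern met in 1.49% of all genes tested. These 6, KLK8, KLK9, KLK10, KLK11, KLK12 and KLK13, hold places 9 to 14 of 15 in the order of the cluster, next to one another. This list, which holds KLK10 itself, and the gene lists below were chosen with earlier results of these data known. Their counts describe these libraries and are no independent check.

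**Figure D1:**
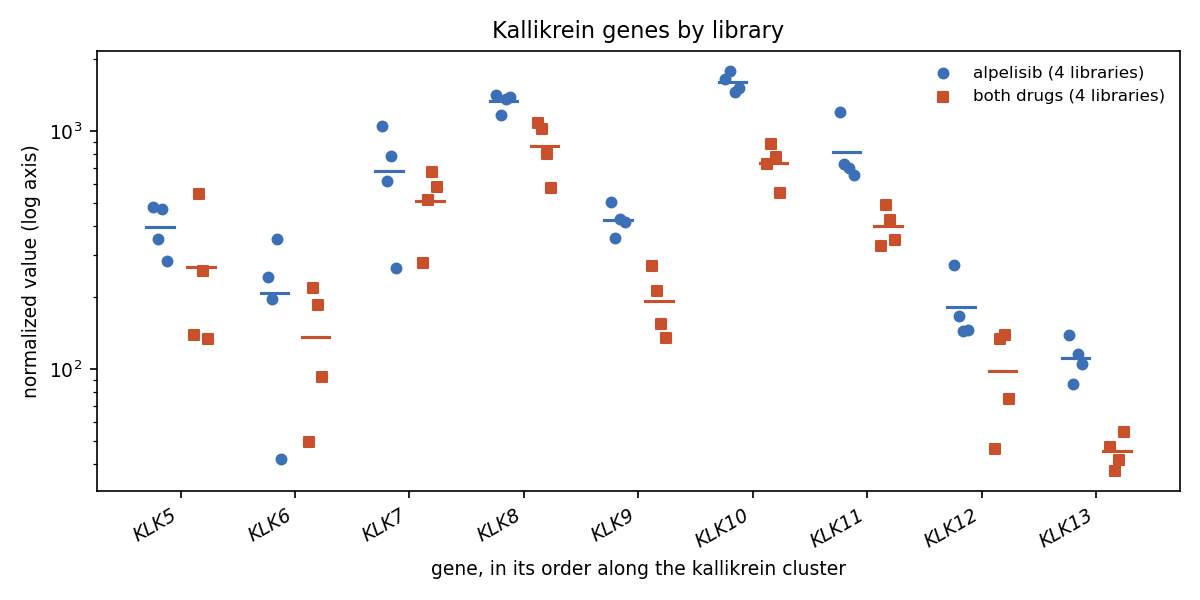
Normalized value (log axis) of the kallikrein genes in the 4 alpelisib and 4 combination libraries, with 1 point per library and a line at each group mean. For KLK10 all 4 combination libraries (546 to 882) lie below all 4 alpelisib libraries (1462 to 1789.5), and KLK8, KLK9, KLK11, KLK12 and KLK13 show the same order.

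KLK9, which is next to KLK10, was at 502, 354, 428 and 414 with alpelisib and 272, 213, 154 and 135 with both drugs (log2 -1.17, SE 0.23). KLK11, the neighbour on the other side, was at 1197, 727, 697 and 651 with alpelisib and 328, 489.5, 425 and 349.6 with both (log2 -1.01, SE 0.21). Alpelisib 1 was the highest library for both genes, and the other 3 alpelisib libraries still lay above all combination libraries. KLK13 was at 139, 86.7, 116 and 105 with alpelisib and 47.1, 37.4, 41.4 and 54.6 with both (log2 -1.28, SE 0.37). KLK8, an activator of other epidermal proteases, was at 1333 ± 112 (SD, n = 4) and 868 ± 228 (SD, n = 4). KLK12 stood at 183 ± 61.7 (SD, n = 4) and 98.2 ± 45.3 (SD, n = 4), with the groups separated by a narrow gap, 145 against 138. The limma adjusted p of these 5 neighbours ranged from 0.191 (KLK9) to 0.561 (KLK12), so limma called none of them. DESeq2 on recovered reads called KLK9 (adjusted p = 0.0125) and KLK11 (adjusted p = 0.0238), and limma without both muscle-rich libraries (combination 1 and nintedanib 4) called KLK9 (adjusted p = 0.0306).

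KLK5 and KLK7, the proteases best known for shedding cornified cells, and KLK6 lie on the other side of KLK8 and their groups overlapped. KLK5 was at 478, 352, 469 and 285 with alpelisib and 139, 544, 259 and 133 with both drugs (log2 -0.77, SE 0.35), combination 2 being the highest of all 8. KLK7 was at 1044, 614, 787 and 266 with alpelisib and 279, 511, 669.8 and 582 with both (log2 -0.32, SE 0.33). KLK1, the tissue kallikrein, went the other way, at 45 ± 16.3 (SD, n = 4) and 75.7 ± 14.5 (SD, n = 4). KLK4 and KLK15 had values of at most 7.95 and 2.09 in these 8 libraries, too few reads to compare.

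In the absence of alpelisib the kallikrein values lay the other way. Their median log2 difference for nintedanib against vehicle was 0.43, and 7 of 11 were above 0. The list scores, set to 0 at the alpelisib mean, were -0.39 to 0.18 with nintedanib and -0.89 to -0.086 with vehicle, so they overlapped. The difference between the nintedanib effects, which share no library, was below 0 at an unadjusted p under 0.05 for 8 of 11 kallikreins, against 3.72% of all genes tested. KLK7 had 331 ± 79.8 (SD, n = 4) with vehicle and 997 ± 309 (SD, n = 4) with nintedanib, a difference of 1.57, and its nintedanib effects differed by -1.89 (SE 0.47, limma adjusted p = 0.394). KLK13 had 70.4 ± 46.8 (SD, n = 4) with vehicle and 113 ± 31.0 (SD, n = 4) with nintedanib, and the effects differed by -2.17 (SE 0.53, limma adjusted p = 0.394). KLK8 and KLK9 were the members with a lower value in both arms, at -0.38 and -0.31 without alpelisib. No kallikrein passed the adjusted threshold for the difference of effects.

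Hypoxia-response genes had higher values with both drugs than with alpelisib, throughout the list. Many of these are known targets of the HIF transcription factors, which accumulate when oxygen is short. All 28 listed genes were tested and all 28 were above 0, where 51.4% of all genes tested were. The median log2 difference was 0.77, the lowest 0.29 and the highest 1.92. At an unadjusted p under 0.05, 16 of 28 were higher and 0 lower, where 4.71% of all genes tested were higher, and in 7 of 28 every combination library lay above every alpelisib library, where 1.6% of all genes tested did. With limma no member passed the adjusted threshold, while DESeq2 on recovered reads called RORA (adjusted p = 0.0248) and LOX (adjusted p = 0.0400). Leaving out 1 library at a time left the median between 0.57 and 0.98 and the count at an unadjusted p under 0.05 between 11 and 24, the most without alpelisib 3.

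**Figure D2:**
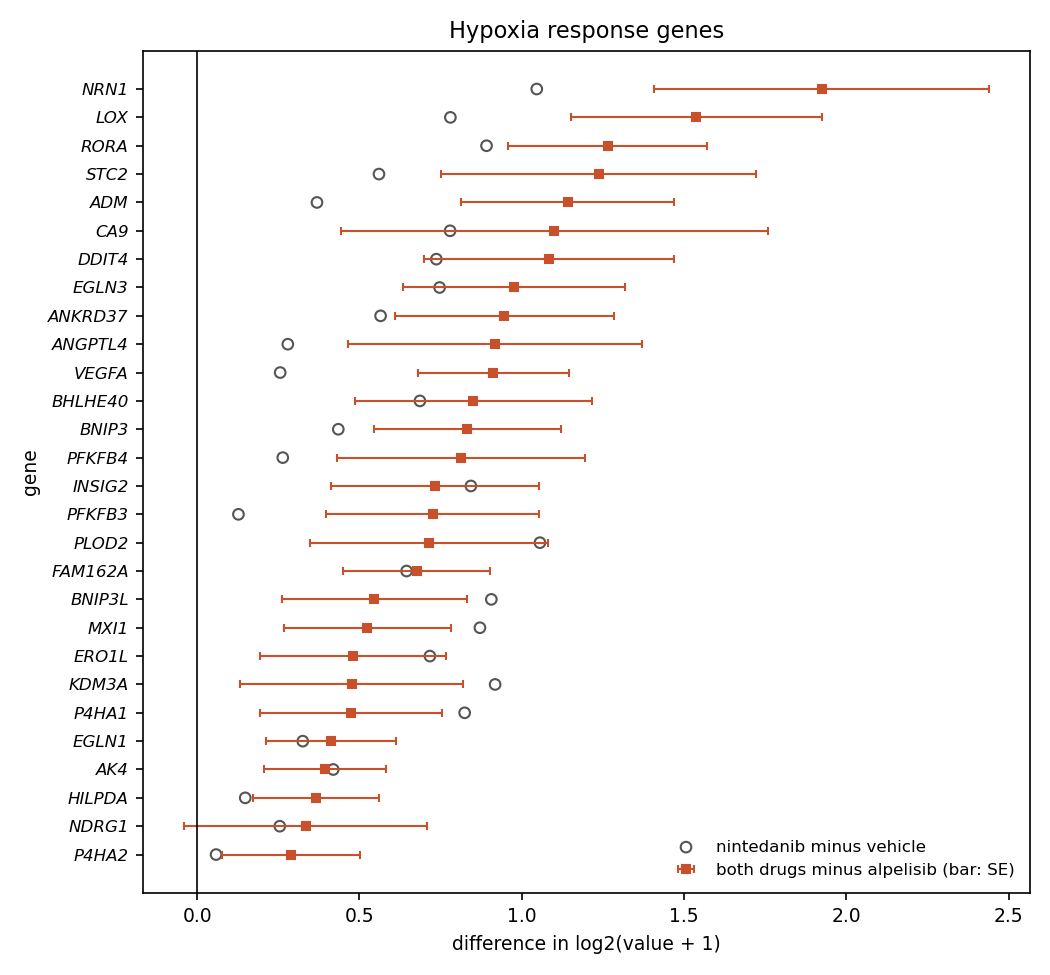
Difference in log2(value + 1) for the 28 hypoxia-response genes, both drugs minus alpelisib as filled squares with bars of 1 SE (limma) and nintedanib minus vehicle as open circles. All squares and all circles lie to the right of 0, from 0.29 to 1.92 for the squares.

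VEGFA, the ligand of the VEGF receptors that nintedanib inhibits, was at 988, 626, 1058 and 614 in alpelisib libraries and 1161, 1240.2, 2264 and 1546 in combination libraries. The groups did not overlap, with a narrow gap between 1058 and 1161. The log2 difference was 0.91 (SE 0.23, limma adjusted p = 0.415), and it was 0.26 (SE 0.23) for nintedanib against vehicle. LOX, which cross-links collagen, was at 103, 41.8, 121 and 84.8 with alpelisib and 174, 212, 328 and 269 with both drugs (log2 1.54, SE 0.39). RORA, a nuclear receptor, was at 85.1, 40.7, 62.7 and 73.3 with alpelisib and 131, 86.0, 181 and 270.1 with both (log2 1.27, SE 0.31). Combination 2 was the lowest combination library for RORA, nearly level with alpelisib 1. Many genes in the annotation overlap RORA, and strand use in the counting is not given, so its reads may include theirs.

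ADM, the vasodilator peptide adrenomedullin, was at 1885, 1412, 3648 and 1524 with alpelisib and 3688, 4208, 5836 and 3872 with both drugs (log2 1.14, SE 0.33). BNIP3, a mitophagy receptor, was at 3526, 2228, 4819.7 and 3243 with alpelisib and 5037, 5307, 8338 and 5543 with both (log2 0.83, SE 0.29). For both genes alpelisib 3 came close to the lowest combination library. NRN1 had the largest difference of the list at 1.92 (SE 0.52), from 72.6 ± 59.6 (SD, n = 4) to 230.1 ± 82.0 (SD, n = 4). ANKRD37, a small HIF target, stood at 178 ± 46.9 (SD, n = 4) and 345 ± 99.2 (SD, n = 4). CA9, the carbonic anhydrase often used as a hypoxia marker, varied too much within groups to tell them apart, with 851, 289, 1029 and 80.6 against 1196, 594, 1537 and 401.

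Averaged over the list and set to 0 at the alpelisib mean, the hypoxia score was 0.17, -0.42, 0.67 and -0.42 in alpelisib libraries and 0.52, 0.54, 1.21 and 0.97 in combination libraries. Alpelisib 3 lay within the range of the combination group, so the scores overlapped. The same list had a median of 0.67 for nintedanib against vehicle, with 28 of 28 above 0, and for 0 of 28 did the nintedanib effects differ at an unadjusted p under 0.05. On the same scale the scores were 0.17 to 1.01 with nintedanib and -0.65 to 0.64 with vehicle, so they overlapped there too. Hypoxia gene values lay higher on average with nintedanib on both backgrounds. The list was chosen with earlier results of these data known, so this describes these libraries and is no independent check.

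Host endothelial markers moved beside this list. In the mouse table the 11 endothelial markers, all with reads in both groups, summed to 0.0793%, 0.0746%, 0.0828% and 0.111% of the table with alpelisib and to 0.0698%, 0.0618%, 0.0461% and 0.0441% with both drugs. The groups did not overlap. Within groups the order was mixed. Combination 3 and 4 had the highest hypoxia scores and the lowest sums of their group. Alpelisib 4 had the lowest score and the highest sum of its group. Alpelisib 3, with the highest score of that group, had a higher sum than alpelisib 2, whose score was among the lowest. For tumours without alpelisib the sums were 0.0352%, 0.0542%, 0.0495% and 0.0896% with nintedanib. With vehicle they were 0.0955%, 0.0784%, 0.0873% and 0.0950%, overlapping through nintedanib 4. In bulk tissue fewer cells of a type and less RNA per cell cannot be told apart. The part of the vessels in the hypoxia difference was not tested.

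Enzymes of glucose uptake and glycolysis, many of them also HIF targets, had a median of 0.28, with 18 of 20 above 0 and 4 higher at an unadjusted p under 0.05, against 4.71% of all genes tested, or 2 without combination 3. PDK1, the kinase that keeps pyruvate out of mitochondria, was the member whose groups did not overlap, at 274, 252, 270.0 and 202 with alpelisib and 274, 306, 479 and 731 with both drugs, alpelisib 1 and combination 1 being all but equal. ENO2 stood at 742 ± 473 (SD, n = 4) and 1735 ± 726 (SD, n = 4), with a log2 difference of 1.32 (SE 0.46). PGK1 was at 3743, 3554, 4893 and 4245 against 5362, 6469.9, 7499.7 and 4780.2, overlapping through combination 4. The list median was 0.17 without alpelisib 2 and 0.42 without alpelisib 3. For nintedanib against vehicle it was 0.01.

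In the carcinoma cells, ligands of the receptors that nintedanib inhibits lay mostly above 0: 13 of 16 tested, against 51.4% of all genes tested. Their median was 0.39, or 0.24 without alpelisib 2. At an unadjusted p under 0.05, 3 of 16 were higher, against 4.71% of all genes tested. That count was 1 without alpelisib 2 or combination 3 and 6 without alpelisib 3. VEGFA, described above, was the member with separated groups. PDGFA, a ligand of the PDGF receptors, was at 2930.0, 1978, 3035 and 2752 with alpelisib and 3114, 2995, 4097 and 4096 with both drugs (log2 0.42, SE 0.17), and PGF, a VEGFR1 ligand, was at 347, 196, 889 and 238 against 425, 611, 1009 and 732 (log2 0.93, SE 0.43). Their limma adjusted p was 0.562 and 0.585. Alpelisib 3 was the highest of its group for both.

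Among the receptors themselves, FGFR2 and FGFR3 were the FGF receptors with substantial reads, and neither differed detectably. FGFR3 was at 743, 692, 664 and 678 with alpelisib and 414, 876, 499.6 and 549.6 with both drugs (log2 -0.30, SE 0.20). FGFR2 stood at 290.1 ± 58.1 (SD, n = 4) and 231 ± 46.3 (SD, n = 4). FGFR4 was at 22.8, 20.9, 17.4 and 17.8 with alpelisib and 9.42, 8.76, 6.36 and 9.43 with both, without overlap (log2 -1.13, SE 0.44, limma adjusted p = 0.544), and it had a difference of -1.51 (SE 0.44) for nintedanib against vehicle. FGFR1 (log2 -0.41, SE 0.58), KDR (-0.12, SE 0.74), FLT1 (0.91, SE 0.56), PDGFRA (0.93, SE 0.72) and PDGFRB (-0.39, SE 0.42) had few human reads and no detectable difference. KDR values ran from 0 to 3.86 in the 8 libraries, which is the level of a few reads. PIK3CA, the target of alpelisib, was at 59.2, 65.8, 71.4 and 54.5 with alpelisib and 45.0, 47.0, 66.8 and 191 with both drugs, combination 4 being far above the others. AXL, a receptor kinase outside the targets listed here, was at 712, 869, 1018 and 1037 with alpelisib and 1070.2, 1518, 1615 and 1170.0 with both (log2 0.56, SE 0.20, limma adjusted p = 0.537).

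Genes of mesenchymal state and matrix had a median of 0.30, with 26 of 32 above 0 and 6 higher at an unadjusted p under 0.05, against 4.71% of all genes tested. That count was 3 without combination 3 and 10 without alpelisib 3. TNC, the matrix glycoprotein tenascin C, was at 567, 360.4, 586 and 489 with alpelisib and 713, 713, 835 and 876 with both drugs (log2 0.67, SE 0.18, limma adjusted p = 0.487), with no overlap. TAGLN, an actin-binding protein of smooth muscle and stressed epithelium, was at 44.8, 64.8, 93.5 and 95.3 against 141, 121, 167 and 152 (log2 1.01, SE 0.30). COL5A1 stood at 814 ± 511 (SD, n = 4) and 1481 ± 528 (SD, n = 4), and alpelisib 3 overlapped the combination group. Host fibroblasts and pericytes express such genes too. Their 9 markers summed to 3.55% to 5.12% of the mouse table with alpelisib and 3.30% to 4.99% with both drugs, and to 0.331% to 0.441% and 0.310% to 0.427% of the human table, overlapping in each. The human counterparts of the 9 skeletal muscle markers summed to 0.00171% to 0.00583% of the human table with alpelisib and 0.00496% to 0.0136% with both, highest in combination 1. The part of host transcripts in the matrix genes was not tested.

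**Figure D3:**
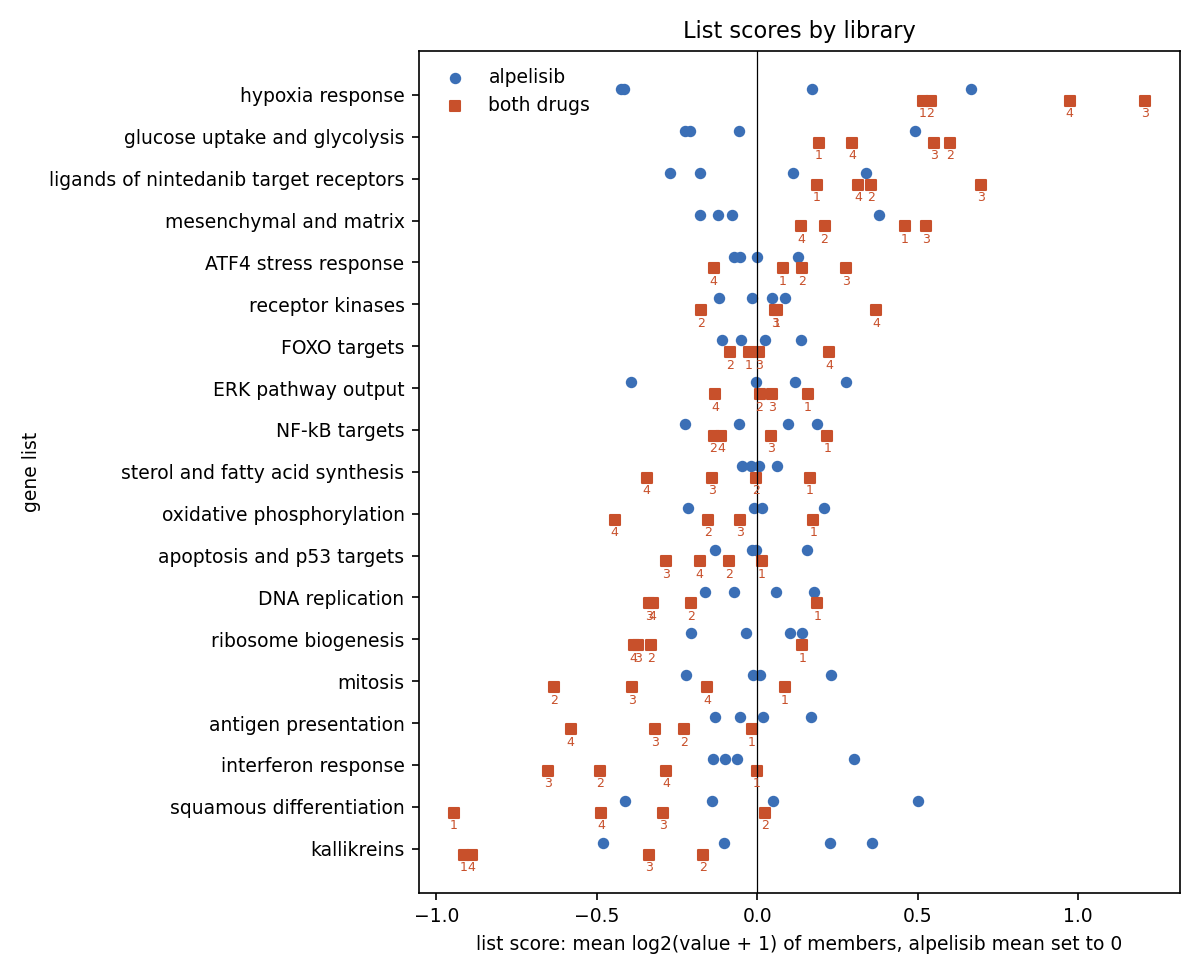
Score of each gene list (mean of log2(value + 1) over its members, set to 0 at the alpelisib mean) in the alpelisib and combination libraries, with 1 point per library. Hypoxia, glycolysis and matrix scores lie mostly above 0 with both drugs, and kallikrein, interferon, antigen presentation and mitosis scores mostly below, with overlap between the groups.

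The squamous differentiation list, 45 tested genes of cornifying epithelium, had a median of -0.42 with 38 below 0. At an unadjusted p under 0.05, 8 were lower, against 3.74% of all genes tested, and 0 higher, and 2 of 45 were lower with separated groups, against 1.49%. KRT1, the keratin of suprabasal cells, was at 13719, 7951, 5909 and 5109 with alpelisib and 4023, 5027, 1728 and 4266 with both drugs (log2 -1.12, SE 0.37, limma adjusted p = 0.537). A narrow gap, 5109 against 5027, separated the groups. Its partner KRT10 was at 15363, 10331, 8667 and 7534 against 6793, 8336, 3783 and 5873 (log2 -0.76, SE 0.29). CALML3, an epithelial calmodulin-like protein, was at 2925, 2509, 3607 and 2388 against 2125, 2200.2, 1865 and 1329.6 (log2 -0.61, SE 0.22). Alpelisib 1 and combination 1 weighed on this list: its median was -0.26 without the first and -0.28 without the second. The count of 8 was 3 without alpelisib 1, 4 without combination 1, 5 without combination 4, 16 without alpelisib 4 and 22 without combination 2.

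Without alpelisib the squamous genes had the opposite sign. Their median for nintedanib against vehicle was 0.70, and 36 of 45 were above 0. The list scores, set to 0 at the alpelisib mean, were -0.35 to 0.49 with nintedanib and -0.86 to -0.14 with vehicle. They overlapped through nintedanib 1 and vehicle 2. For 20 of 45 the nintedanib effects differed in the negative direction at an unadjusted p under 0.05, against 3.72% of all genes tested, and for 0 of 45 in the positive direction. CDSN, corneodesmosin of the cornified cell junction, was at 221, 288, 242 and 234 with vehicle, 531, 1328, 806 and 608 with nintedanib, 1039, 515, 714 and 392 with alpelisib and 221, 646, 487 and 187 with both drugs. All 4 nintedanib libraries were above all 4 vehicle libraries, whereas combination and alpelisib overlapped, and the effects differed by -2.52 (SE 0.49, limma adjusted p = 0.205). SPRR2E, a small proline-rich protein of the cornified envelope, was at 1641, 2396, 1132 and 1360.0 with vehicle and 2262, 11061, 5834 and 3246 with nintedanib. It was at 4555, 3361, 2690.5 and 2938 with alpelisib and 866, 2807, 2059 and 1185 with both, and the effects differed by -2.66 (SE 0.54, limma adjusted p = 0.205). The SPRR2 genes are close copies of one another, so reads may be divided among them.

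MMP13, a collagenase made by squamous carcinoma cells, had the smallest p of all genes for that difference. It was at 311, 324, 292 and 303 with vehicle and 764, 401, 509 and 624 with nintedanib, so nintedanib libraries lay above vehicle libraries. With alpelisib it was at 377, 680.1, 754 and 502, and with both drugs at 219, 342, 158 and 368. These lay below every alpelisib library, but by a narrow gap, 377 against 368. The log2 difference was 0.86 (SE 0.26) without alpelisib and -1.12 (SE 0.26) with it, and the effects differed by -1.98 (SE 0.36, limma adjusted p = 0.205). No gene passed the adjusted threshold for a difference between the nintedanib effects (0 of 17663), and 1100 did so at an unadjusted p under 0.05, 657 negative and 443 positive.

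**Figure D4:**
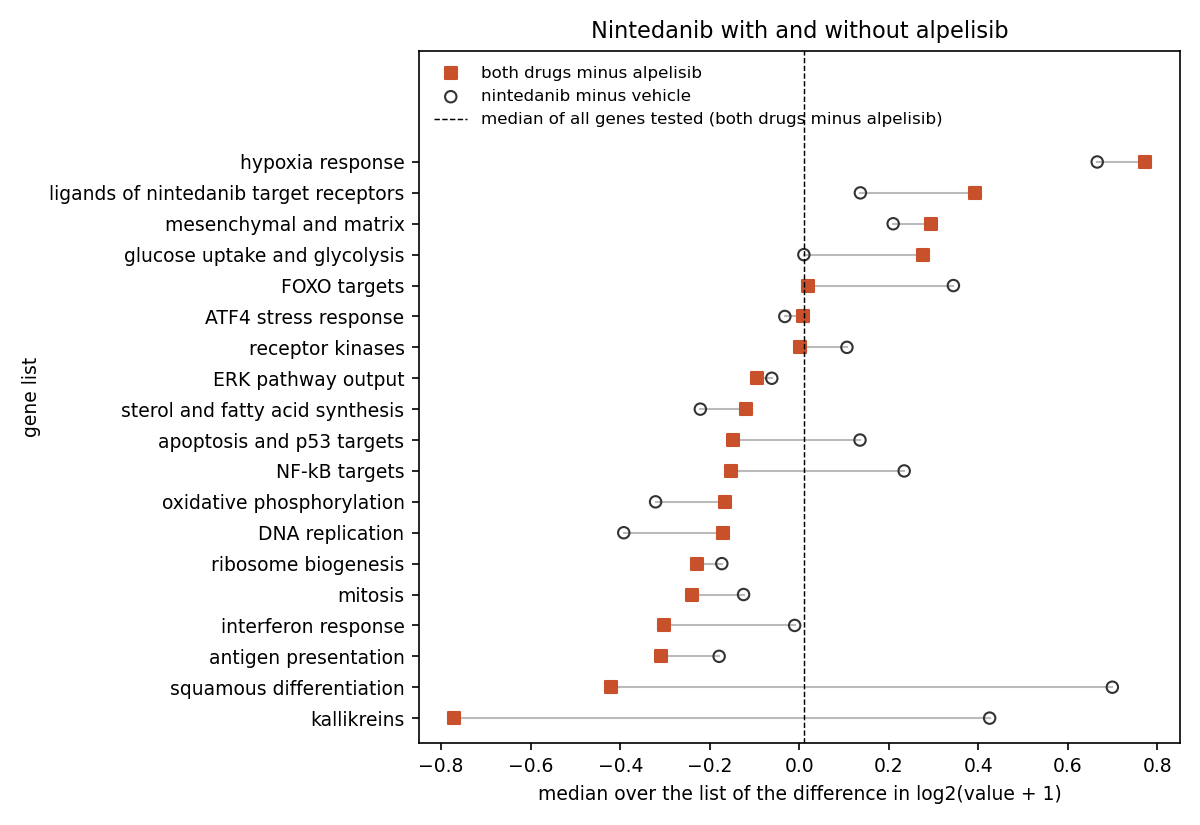
Median over each gene list of the log2(value + 1) difference between both drugs and alpelisib (filled squares) and between nintedanib and vehicle (open circles), with the median of all genes tested as a dashed line. The hypoxia list lies to the right for both (0.77 and 0.67), while kallikreins (-0.77 and 0.43) and squamous differentiation (-0.42 and 0.70) lie on opposite sides.

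Genes of antigen presentation, which cut, carry and display peptides on HLA class I, had a median of -0.31 with 18 of 22 below 0. At an unadjusted p under 0.05, 6 were lower, against 3.74% of all genes tested, and 1, B2M, was higher, which is near the 4.71% of all genes tested. The count of 6 ran from 4 to 9 with single libraries left out. PSMB10, a catalytic subunit of the immunoproteasome, was at 1111, 900.5, 1243 and 936 with alpelisib and 886, 699.7, 622 and 340.1 with both drugs (log2 -0.79, SE 0.24), and PSMB9, another such subunit, at 2876, 2625, 3646 and 2519.6 against 2345, 1956, 1596 and 1543 (log2 -0.65, SE 0.21). Both had separated groups, and combination 4 was the lowest library. TAP1, a subunit of the peptide transporter, was at 1757, 1550.3, 1894 and 1330.0 against 1357, 1259, 1131 and 971 (log2 -0.47, SE 0.17), overlapping through alpelisib 4. TAPBPL, a peptide editor, stood at 706 ± 135 (SD, n = 4) and 402 ± 170.2 (SD, n = 4). B2M, the invariant chain of class I, was at 21590.2, 42693, 23596 and 41532 against 45873, 28292, 80732 and 58338 (log2 0.69, SE 0.33). The limma adjusted p of these 5 genes ran from 0.498 to 0.590, and the list median was -0.20 without combination 4.

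**Figure D5:**
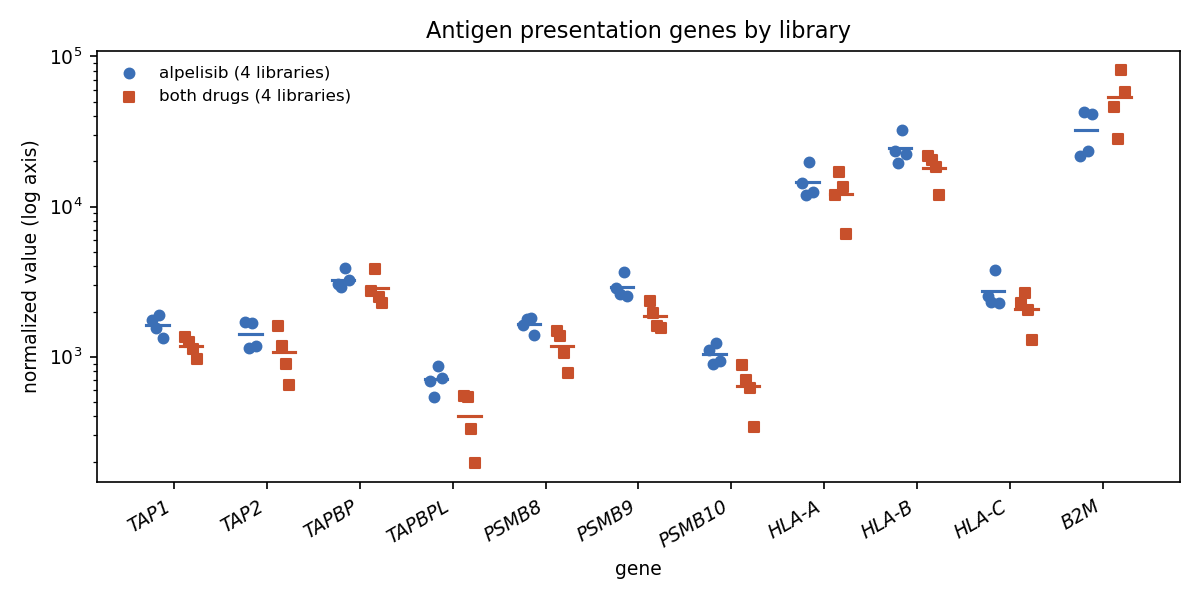
Normalized value (log axis) of antigen presentation genes in the 4 alpelisib and 4 combination libraries, with 1 point per library and a line at each group mean. PSMB9 and PSMB10 lie lower in all 4 combination libraries than in any alpelisib library.

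Interferon response genes lay below 0 in 30 of 31, with a median of -0.30, and 6 of 31 were lower at an unadjusted p under 0.05, against 3.74% of all genes tested. That count was 3 without alpelisib 3 or combination 3 and 11 without combination 1. GBP2, an interferon-induced GTPase, was at 349, 266, 413 and 323 with alpelisib and 258, 257, 149.5 and 179 with both drugs, separated by a gap of 266 against 258 (log2 -0.70, SE 0.22, limma adjusted p = 0.537). IFIT3 was at 4989.7, 4850.4, 6536 and 5196 against 5641, 2834, 2164 and 2764, combination 1 lying with the alpelisib libraries (log2 -0.78, SE 0.23). IFIT1 was at 1580.5, 3579, 2565 and 2598 against 2439, 1062, 1037 and 1543 (log2 -0.80, SE 0.25). These IFIT proteins bind viral RNA and share sequence, and another gene overlaps both in the annotation. For nintedanib against vehicle the list median was -0.01, and for 7 of 31 the nintedanib effects differed in the negative direction at an unadjusted p under 0.05, against 3.72% of all genes tested.

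Cell division genes lay slightly below 0 on the whole. Mitosis genes had a median of -0.24 with 30 of 32 below 0, 5 of 32 lower at an unadjusted p under 0.05, against 3.74% of all genes tested, and none with separated groups. That count was 1 without combination 3, 2 without alpelisib 2, 3 without alpelisib 4 and 9 without combination 1. TOP2A, which untangles chromosomes, was at 5441, 5681, 4115 and 4948 with alpelisib and 5459, 2215, 2611 and 3978 with both drugs (log2 -0.58, SE 0.23). KIF20A, a kinesin of cytokinesis, was at 315, 304, 258 and 262 against 288, 160.0, 189 and 126 (log2 -0.64, SE 0.23). Combination 1 lay among the alpelisib libraries for both. The median was -0.12 without combination 2 and -0.16 without alpelisib 2. DNA replication genes had a median of -0.17, against -0.39 for nintedanib without alpelisib, and 3 of 30 were lower at an unadjusted p under 0.05, against 3.74% of all genes tested. That count was 0 without combination 3, 1 without alpelisib 2 or alpelisib 4, 6 without combination 1 and 7 without combination 2. MCM2, a subunit of the replicative helicase, was at 1731, 2757, 1576 and 1499.6 against 1885, 1511, 1136 and 800.2. The median of this list was -0.27 without combination 1 and -0.11 without combination 2.

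Ribosome biogenesis genes had a median of -0.23 with 23 of 25 below 0, and 2 of 25 were lower at an unadjusted p under 0.05, against 3.74% of all genes tested, or 7 without combination 1 and 1 without alpelisib 2, alpelisib 3, alpelisib 4, combination 2 or combination 3. NCL, the nucleolar protein nucleolin, was at 11052, 11433, 9861 and 11636 with alpelisib and 12972, 6608, 5888 and 6629.8 with both drugs, so 3 combination libraries lay below and combination 1 above all alpelisib libraries. NCL hosts small nucleolar RNAs that overlap it. Oxidative phosphorylation genes had a median of -0.16, with 19 of 29 below 0, and 5 of 29 were lower at an unadjusted p under 0.05, against 3.74% of all genes tested. That count was 1 without combination 3 or combination 4, 2 without alpelisib 4, 3 without alpelisib 2 and 8 without combination 1. COX5B, a subunit of cytochrome oxidase, was at 9395, 6722, 9183 and 7967 against 6363, 5516, 5603 and 4051 (log2 -0.63, SE 0.19, limma adjusted p = 0.519). CYC1 and NDUFB10, subunits of complexes further up the chain, also had separated groups, at -0.43 (SE 0.18) and -0.40 (SE 0.18). Their gaps were narrow, 3110 against 3077 and 2576 against 2520. Lower with separated groups were 3 of 29, against 1.49% of all genes tested. The median of the respiratory genes was -0.051 without combination 4 and -0.10 with quantile normalization.

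Readouts of the pathways nearest to the drugs had list medians near 0. The ERK output list, where FGF receptor signals would be read, had a median of -0.10 with 16 of 25 below 0, and 2 of 25 were higher at an unadjusted p under 0.05, EGR2 and SPRY1. That is 8%, against 4.71% of all genes tested, and the count was 0 without combination 3 and 4 without vehicle 2. In 1 of 25, SPRED2, the groups were separated, against 1.6% of all genes tested. SPRED2 was at 84.3, 70.0, 78.1 and 68.1 with alpelisib and 118, 117, 111 and 91.6 with both drugs (log2 0.54, SE 0.26). DUSP6, a feedback phosphatase of ERK, was at 2109, 2085, 2387 and 1648 with alpelisib and 2966, 1887, 2421 and 1617 with both drugs (log2 0.09, SE 0.20). FOXO targets, which are held down by AKT, had a median of 0.02 with 12 of 24 above 0, and 0.34 with 22 of 24 above 0 for nintedanib against vehicle. CCNG2, a FOXO target that slows the cycle, was at 70.6, 86.7, 86.8 and 76.4 against 105, 103, 197 and 218, with separated groups (log2 0.87, SE 0.33). TNFSF10, which encodes the death ligand TRAIL, was at 3647 ± 593 (SD, n = 4) and 2312 ± 1023 (SD, n = 4). NF-kB targets (-0.15), ATF4 stress genes (0.01), sterol and fatty acid synthesis (-0.12), apoptosis and p53 targets (-0.15) and the receptor kinases as a list (0.00) had medians near 0. These moved with single libraries: without combination 4 the sterol median was -0.022, the NF-kB median -0.058 and the ATF4 median 0.15, and without combination 3 the apoptosis median was -0.065. At an unadjusted p under 0.05, 3 of 22 ATF4 genes were higher and 1 lower, against 4.71% and 3.74% of all genes tested, and 1 was higher without combination 3 or alpelisib 1. VLDLR, a lipoprotein receptor, was at 98.0, 55.4, 90.6 and 45.0 against 101, 115, 156 and 161 (log2 0.92, SE 0.30).

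Outside the lists above, the abundant genes with separated groups and the smallest p included several of mixed function. ALDH3A1, an aldehyde dehydrogenase of squamous epithelium, was at 442, 420.0, 354 and 498 with alpelisib and 251, 213, 108 and 130.0 with both drugs (log2 -1.35, SE 0.26, limma adjusted p = 0.191). LGALS9, the lectin galectin-9, was at 223, 332, 314 and 273 against 128, 186, 93.9 and 101 (log2 -1.20, SE 0.27, limma adjusted p = 0.374). SOX2, a transcription factor of squamous lineage, was at 1064, 1049, 1044 and 923 against 600.0, 666, 433 and 763 (log2 -0.76, SE 0.18, limma adjusted p = 0.390). All 3 had the same sign for nintedanib against vehicle, at -0.46, -0.41 and -0.10. FRAT2, an inhibitor of GSK3, stood at 879 ± 157 (SD, n = 4) and 481 ± 123 (SD, n = 4), FAM102A at 1321 ± 204 (SD, n = 4) and 739 ± 240.4 (SD, n = 4), and IFI30, a lysosomal thiol reductase, at 751 ± 68.8 (SD, n = 4) and 423 ± 140.3 (SD, n = 4).

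On the higher side, PTS, an enzyme of tetrahydrobiopterin synthesis, was at 74.4, 64.8, 55.0 and 91.1 with alpelisib and 176, 123, 224 and 159 with both drugs (log2 1.24, SE 0.29, limma adjusted p = 0.390). ZNFX1-AS1, a long noncoding RNA that hosts small nucleolar RNAs, was at 3238, 2903, 2635 and 3667 against 4466, 4739, 10767 and 5727 (log2 0.96, SE 0.23). GAS5, another such host, was at 3191, 4183, 2175 and 4435 against 4569.9, 5514, 17689.6 and 9490.4 (log2 1.26, SE 0.33). Combination 3 was the highest library for both host genes. Small nucleolar RNAs lie within both genes, GAS5 has an antisense partner, and strand use in the counting is not given. TMSB4X, the actin-binding thymosin beta 4, was at 5015 ± 712 (SD, n = 4) and 10645 ± 5086 (SD, n = 4), and copies of it elsewhere in the genome could share its reads. C4orf3, which encodes a small membrane peptide, stood at 1150.0 ± 107 (SD, n = 4) and 1846 ± 511 (SD, n = 4), with 0.57 (SE 0.18) for nintedanib against vehicle.

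Across all 17663 genes, 1492 had an unadjusted p under 0.05, 832 higher and 660 lower with both drugs, and with values scaled to all mapped reads, human and mouse together, the split was 656 higher and 869 lower. Groups did not overlap for 282 higher and 263 lower genes, or 1.6% and 1.49% of all genes tested. The difference between both drugs and alpelisib and that between nintedanib and vehicle, which share no library, had a Pearson correlation of 0.142 across the 17663 genes and of 0.262 across the 8832 at or above median expression, where 62.3% of genes had the same sign. Genes are not independent replicates, so this is a description of these 16 libraries.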

How the data were processed

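Xenograft RNA was sequenced from its 3′ ends (QuantSeq kit) in 16 libraries, 4 per treatment, and mapped apart to human and mouse, with TopHat and the builds hg19 and mm10 per the submitters' processing notes. For the counting tool, annotation, strand setting and scaling method, nothing is given in the sources used here. The deposited tables hold signal, a normalized value per gene and library: all values above 0 were whole multiples of 1 step per library (100% within 0.01 read), so whole reads could be recovered.

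The plan set out a branch for counts and one for normalized values, and the second was followed. The 17663 of 23368 genes that reached 1 in 4 or more of 16 libraries were fitted as log2(value + 1) with limma 3.58.1 in R 4.3.3 (lmFit, eBayes with trend), with 4 group means over 16 libraries and 12 residual degrees of freedom. The contrasts were combination minus alpelisib, nintedanib minus vehicle, and the first minus the second. Depth was 8303617 to 18568119 human reads. Without molecular identifiers, reads copied in amplification could not be told from reads of separate transcripts.

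The comparison, the gene lists and the rule for naming genes were chosen with earlier results of these data known. Genes were named if past the threshold, if among the 10 smallest p in each direction among separated genes no lower than median expression, if among the 4 smallest p of a list, if a drug target, or if among the 3 smallest p for the difference of effects. Kallikreins, KRT5, TP63 and some further list members were added after their values were seen. Alternatives were other scalings, filters, a pseudocount of 0.1, no trend, 8 libraries only, edgeR 4.0.16, DESeq2 1.42.0 and limma-voom (all 3 on whole reads), replicate number as a block, and leaving out each library or both libraries rich in muscle transcripts. Steps were tested on simulated data. Gene names and order came from a RefSeq table of GRCh38.p14, another build, so no coordinates are printed. A gene of the lists is not reported here.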

Additional observations from a re-analysis of the deposited data

Results flagged for a closer look

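Single libraries lay far from the other 3 of their group in 8 of 226 groups of 4 checked (named genes and list scores in the alpelisib and combination groups), and chance gives about 1 in 20. In alpelisib 3, SLC2A3, a glucose transporter, was at 77.1 against 4.56 to 6.28, OASL, an interferon-induced gene, at 2093 against 1293 to 1357, and COL5A1 at 1578 against 520.2 to 616. In combination 1, NCL was at 12972 against 5888 to 6629.8, and the ribosome biogenesis score was 0.14 against -0.38 to -0.33. SOX2 was at 923 in alpelisib 4 against 1044 to 1064, PES1, a ribosome assembly factor, at 995 in alpelisib 1 against 1304 to 1329.8, and FGFR1 at 4.78 in combination 2 against 9.55 to 10.8. In the mouse table, which the comparison does not use, host skeletal muscle genes made up 2.254% in combination 1 against 0.002665% to 0.3176% in the alpelisib group.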

How the results depend on the processing

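KLK10 kept its call with scaling to all mapped reads, with DESeq2 and without nintedanib 1, nintedanib 4, combination 2 or both muscle-rich libraries (combination 1 and nintedanib 4). No gene was called (0) with quantile normalization, no filter, a value of at least 10, a pseudocount of 0.1, the 8 libraries only, edgeR or limma-voom, where 1150 to 1594 genes had an unadjusted p under 0.05. DESeq2 called 19 genes, 13 of them higher, among them KLK9, KLK11, ALDH3A1, LGALS9, MMP13, RORA, LOX, PTS, ZNFX1-AS1 and GAS5, and the fit without both muscle-rich libraries 14, of them 4 higher, among them KLK9, ALDH3A1, IFI30, IFIT3, CD74, HLA-DRA and HLA-DMA. Limma without the trend called 1 gene, another than KLK10. Leaving out 1 library gave 0 to 1 calls, and 869 (without combination 3) to 2320 (without combination 2) genes at an unadjusted p under 0.05. For the difference of nintedanib effects the count was 2 without the trend, 10 with DESeq2 and 0 to 8 with 1 library left out (3 without nintedanib 1, 8 without combination 2). Same-numbered alpelisib and combination libraries did not deviate together (correlations -0.16 to 0.027), so the replicate block shows no pairing: it called 0 genes between the groups and 3 for the difference of effects. With 1 library left out, KDR ranged from -0.51 to 0.25 (0.25 without alpelisib 3, 0.23 without combination 2) and PIK3CA from -0.26 (without combination 4) to 0.43. No other named gene changed sign, while the medians of lists near 0 (ERK output, FOXO targets, ATF4 stress genes and receptor kinases) did with single libraries left out. The causes were not tested. Few reads limit KDR, PDGFRA, FGFR1 and KLK4.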

Other observations

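The gene groups in these paragraphs were put together after the values had been seen, so their counts describe these libraries and support nothing further. HLA class II molecules display peptides from lysosomes, and epithelial cells make them when the transactivator CIITA is induced. Of 13 genes of class II and its lysosomal loading, 11 were below 0 with both drugs against alpelisib, 9 of them at an unadjusted p under 0.05, against 3.74% of all genes tested, or 6 without combination 4, and the median log2 difference was -1.09, against 0.01 for all genes tested and -0.48 for nintedanib against vehicle. CIITA was at 65.3, 71.0, 70.4 and 60.7 with alpelisib and 41.9, 22.3, 41.4 and 14.8 with both drugs. HLA-DMB, a chain of the peptide exchanger, was at 60.0, 43.9, 44.4 and 69.1 against 31.4, 17.5, 12.7 and 8.08 (log2 -1.72, SE 0.51), and HLA-DMA, its partner, at 166, 159, 178 and 151 against 147, 51.7, 82.7 and 53.9. The groups did not overlap for these 3 genes. Of the 13, 4 had every combination library below every alpelisib library, against 1.49% of all genes tested. CD74, the invariant chain, was at 3254, 2102, 3335 and 2266 against 2360.4, 1269, 916 and 1227, and HLA-DRA at 916, 1022, 881 and 1111 against 995, 440.2, 444 and 426, with combination 1 among the alpelisib libraries for both. The limma adjusted p of these 5 genes ran from 0.510 to 0.538. HLA genes are similar to one another, so reads may be divided among them. The human counterparts of the 9 host macrophage and neutrophil markers summed to 0.125% to 0.244% of the human table with alpelisib and 0.130% to 0.291% with both drugs. These markers include S100A8 and S100A9, which are also in the squamous differentiation list, so the sums can hold carcinoma transcripts. The part of host cells in the class II values was not tested.

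Host genes of small nucleolar RNAs, of which 14 were tested, had a median of 0.38 with 12 above 0 and 3 higher at an unadjusted p under 0.05, against 4.71% of all genes tested, and the median was 0.23 without combination 3 and 0.60 without alpelisib 4. For nintedanib against vehicle the median was -0.24. Ribosomal protein genes had a median of 0.16, with 60 of 84 above 0 and 19 higher at an unadjusted p under 0.05, against 4.71% of all genes tested. Without combination 3, the library with the fewest reads of its group, the median was 0.057 and 6 were higher, close to that share, and without alpelisib 3 there were 8. NRF2 and aldehyde detoxification genes had a median of -0.18, with 15 of 20 below 0 and 4 lower with separated groups, against 1.49% of all genes tested. A group of HOXA and other epithelial transcription factor genes, SOX2 among them, had a median of -0.23, with 12 of 17 below 0. The median of the HOXA group was -0.42 without combination 2 and -0.40 with quantile normalization. That of the NRF2 group was -0.29 without combination 1.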
